A study of Mus musculus with 2 samples.

Results

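The regions described here are the ATAC-seq peaks whose midpoints lay from 1001 to 10000 bp downstream of the transcription start site to which the deposited list assigned them, that is, in the direction of transcription. Of 26232 distinct peaks, 1921 (7.32%) met this rule, and they were assigned to 1852 of the 15351 genes with any peak. ATAC-seq uses the Tn5 transposase to insert sequencing adapters into open chromatin, and a peak is a region where insertions accumulate. The cells were cardiac progenitors (CPCs), taken on day 5 of differentiation from E14 Tg(Nkx2-5-EmGFP) mouse embryonic stem (ES) cells. These ES cells are of labelled strain C57BL/6 and carry a green fluorescent reporter for Nkx2-5. In the directed differentiation of the methods, ES cells received LIF and BMP4 and were aggregated. They were then exposed to Activin A, VEGF and BMP4, and were plated with VEGF, bFGF and FGF10. The methods also describe a hanging drop route, in which CPCs were sorted for the reporter on day 5. Their ATAC-seq section does not name the route used. The 2 samples were replicates of 1 group without knockdown, described in the methods as independent differentiations, and they shared 1 list of peaks called in both. No sorting of the cells is named in the labels or in the methods for this assay, so the libraries could hold other cells of the culture. The list held no signal and no value for a single replicate, so depth per sample is unknown and no value below has a replicate error.

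DNA just downstream of a start site is mostly the beginning of a gene. It contains the first introns, where many enhancers of developmental genes are found, the first coding exons, and often further promoters from which shorter transcripts of the same gene start. Beyond short genes it also contains intergenic DNA. A promoter is often rich in CpG dinucleotides, which are otherwise depleted from mammalian DNA, whereas enhancers usually are not. Open chromatin at these places can also be bound by CTCF, a zinc finger protein that organises chromatin loops. In cardiac progenitors, GATA, T-box, NKX2, MEF2, LIM-homeodomain, HAND and TEAD factors and SRF bind regulatory DNA of genes for heart patterning and contraction.

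Open start sites were compared with marker genes as a check of the label. A peak lay within 1 kb of the start site of 6 of 8 cardiac progenitor genes (Nkx2-5, Isl1, Tbx5, Mef2c, Tbx20 and Hopx, but not Gata4 or Hand2) and of 0 of 3 liver genes. The same held for 2 of 4 pluripotency genes (Zfp42 and Sox2), 2 of 3 neural genes (Pax6 and Sox1) and 1 of 3 endothelial genes (Kdr). Among all GENCODE protein coding genes, 10894 had such a peak and 11338 had none, so these few markers are only a weak check of the label. An open start site is not a measure of expression, and the contribution of other cells to the downstream peaks was not tested.

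The sequences of several downstream peaks show the range of DNA in this class. All are the plus strand of mm9, 5′ to 3′, in lower case. The first set is the central 200 bp of the 3 peaks at genes of cardiac regulation or contraction that held a match to one of 8 motifs of heart factors, with the matches in capitals. Tmod1 encodes a protein that caps the thin filaments of the sarcomere, Kcnh2 a potassium channel of cardiac repolarisation, and Eomes a T-box factor of early mesoderm. Their windows were chr4:46053576-46053775, chr5:23828097-23828296 and chr9:118395818-118396017.
Tmod1: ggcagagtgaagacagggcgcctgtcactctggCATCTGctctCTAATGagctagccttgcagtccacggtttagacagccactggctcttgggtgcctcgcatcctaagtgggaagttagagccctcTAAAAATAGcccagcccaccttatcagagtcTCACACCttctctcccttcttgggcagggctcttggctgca
Kcnh2: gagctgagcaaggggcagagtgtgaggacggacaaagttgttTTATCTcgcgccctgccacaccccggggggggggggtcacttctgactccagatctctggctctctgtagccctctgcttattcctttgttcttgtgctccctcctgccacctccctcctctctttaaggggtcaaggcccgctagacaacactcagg
Eomes: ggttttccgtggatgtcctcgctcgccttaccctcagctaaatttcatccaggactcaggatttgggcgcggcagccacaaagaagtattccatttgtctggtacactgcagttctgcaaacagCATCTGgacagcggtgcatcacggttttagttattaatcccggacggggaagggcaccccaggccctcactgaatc
The second set shows central windows of 200 bp with each CpG dinucleotide in capitals. It was chosen after the values were seen, to set CpG-dense DNA beside CpG-poor DNA. Density here is that of the central window. Over the whole peak the ratio of observed to expected CpG was 0.49 at Smarcd3 and 0.56 at Gata4. Both are below the limit of 0.6 used further on, so neither counts as a CpG-rich peak. Smarcd3 encodes Baf60c, a cardiac subunit of the SWI/SNF chromatin remodelling complex, Gata4 encodes a regulator of heart progenitors, Tnnt2 encodes cardiac troponin T and Myl7 the atrial myosin light chain. The windows were chr5:24104469-24104668 (22 CpG), chr14:63859738-63859937 (20 CpG), chr1:137747322-137747521 (3 CpG) and chr11:5792583-5792782 (2 CpG).
Smarcd3: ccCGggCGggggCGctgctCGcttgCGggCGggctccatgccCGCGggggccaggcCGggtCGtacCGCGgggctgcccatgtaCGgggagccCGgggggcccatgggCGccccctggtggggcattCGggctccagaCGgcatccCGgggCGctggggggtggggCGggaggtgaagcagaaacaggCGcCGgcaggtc
Gata4: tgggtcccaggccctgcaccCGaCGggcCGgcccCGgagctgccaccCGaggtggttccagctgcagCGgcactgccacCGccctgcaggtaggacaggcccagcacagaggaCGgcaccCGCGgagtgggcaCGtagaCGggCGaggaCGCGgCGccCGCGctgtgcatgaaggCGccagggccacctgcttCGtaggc
Tnnt2: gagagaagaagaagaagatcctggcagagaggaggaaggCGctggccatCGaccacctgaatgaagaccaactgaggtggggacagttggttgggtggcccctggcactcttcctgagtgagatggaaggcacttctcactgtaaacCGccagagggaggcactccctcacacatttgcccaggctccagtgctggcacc
Myl7: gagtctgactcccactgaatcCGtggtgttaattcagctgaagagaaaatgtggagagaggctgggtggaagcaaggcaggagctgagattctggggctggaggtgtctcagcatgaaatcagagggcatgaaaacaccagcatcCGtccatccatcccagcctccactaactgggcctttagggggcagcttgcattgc
The third set, also chosen after the values were seen, shows the 4 matches to a CTCF motif core that lay nearest to the midpoint of a downstream peak outside UTRs, with the match in capitals. The windows of 60 bp were chr14:124060498-124060557, chr2:29898131-29898190, chr19:45821003-45821062 and chr4:135324925-135324984, and the matches lay 0.5 to 3.5 bp from the midpoints.
Itgbl1: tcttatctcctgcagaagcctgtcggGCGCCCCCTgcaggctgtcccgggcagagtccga
Wdr34: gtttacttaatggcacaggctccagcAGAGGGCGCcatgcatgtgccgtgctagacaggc
Npm3: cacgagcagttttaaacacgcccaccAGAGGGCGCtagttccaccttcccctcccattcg
Myom3: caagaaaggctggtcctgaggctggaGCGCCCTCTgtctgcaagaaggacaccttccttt

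Downstream peaks were most frequent close to the start site, became fewer up to 5 kb and then more frequent again. There were 309 peaks from 1 to 2 kb, 205 from 2 to 3 kb, 165 from 3 to 4 kb and 168 from 4 to 5 kb, followed by 223, 232, 219, 195 and 205 in the 5 bins from 5 to 10 kb. The 1691 peaks in the mirror window, 1 to 10 kb upstream, had the same dip, with 150 peaks from 4 to 5 kb and 205 from 5 to 6 kb. Downstream peaks outnumbered upstream peaks by a ratio of 1.14 (exact binomial 95% confidence interval 1.06 to 1.21). This excess depended on the annotation and on the amount of sequence. Placed by the nearest GENCODE protein coding start site, 1903 peaks lay downstream and 1761 upstream, a ratio of 1.08 (1.01 to 1.15). With the same placement 208.7 Mb of sequence lay downstream and 186.7 Mb upstream, with 9.12 and 9.43 peaks per Mb, and the ratio per Mb was 0.967 (0.906 to 1.03). On this scale 11.0 peaks per Mb (9.77 to 12.3) were found 1 to 2 kb downstream, 7.12 (6.10 to 8.28) at 4 to 5 kb and 10.2 (8.88 to 11.6) at 6 to 7 kb. Intervals here and below cover counting over the peaks of 1 list and not the variation between differentiations, and peaks of 1 gene are not independent.

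Whether the assigned gene also had a peak at its start site changed sharply with distance. Over all downstream peaks, 842 (43.8%, Wilson interval 41.6 to 46.1) belonged to a gene with a peak within 1 kb of the start site, a share that differed from the 43.9% of upstream peaks by -0.05 percentage points (Newcombe interval -3.29 to 3.19). Among the 847 downstream peaks up to 5 kb the share was 29.8%, and among the 1074 beyond 5 kb it was 54.9%, a difference of 25.2 points (20.8 to 29.4). The upstream peaks stepped in the same way, from 28.0% to 56.9%. In single bins the downstream share was 36.3% (29.4 to 43.8) at 4 to 5 kb and 49.8% (43.3 to 56.3) at 5 to 6 kb. The number of downstream peaks without a start site peak fell from 231 at 1 to 2 kb to 107 at 4 to 5 kb and was 112 at 5 to 6 kb, so the step lay in the peaks whose gene had a start site peak, of which there were 61 at 4 to 5 kb and 111 at 5 to 6 kb.

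**Figure D1:**
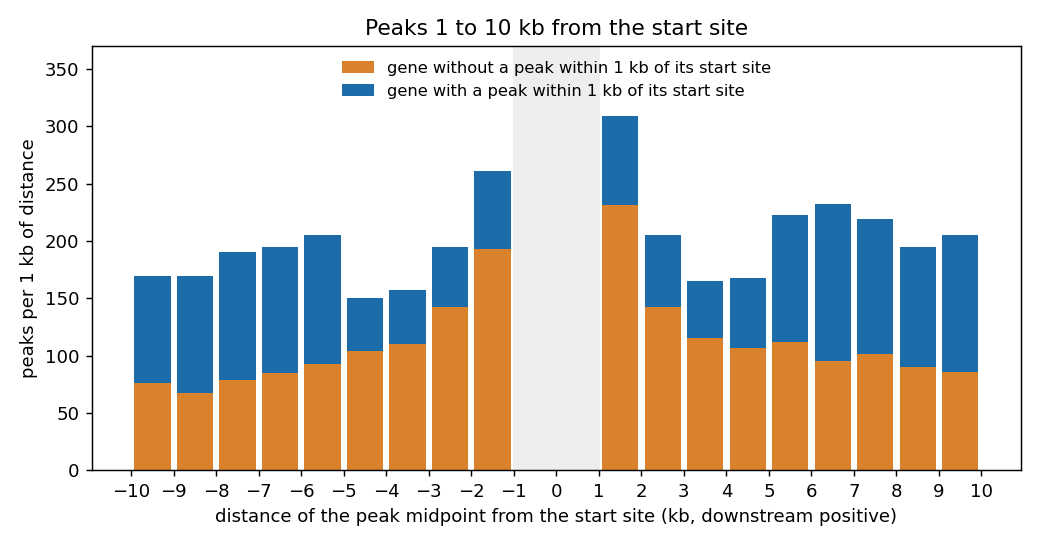
Peaks per 1 kb of distance from the start site (kb, downstream positive), divided by whether the assigned gene had a peak within 1 kb of its start site (blue) or not (orange); the grey band within 1 kb was not counted. The blue part rises at 5 kb on both sides, from 61 to 111 peaks downstream.

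The same step was present in the spacing of the whole list. Over all neighbouring pairs of peaks, 270 pairs had midpoints 4 to 5 kb apart and 572 had midpoints 5 to 6 kb apart, a ratio of 2.12 (1.83 to 2.46). For downstream peaks and their nearest peak of any kind the counts were 79 and 188, a ratio of 2.38 (1.82 to 3.14). The median distance to the nearest peak was 8453 bp (8236 to 8863), and 317 downstream peaks (16.5%) had another peak within 5 kb. The spacing used midpoints alone, without genes or strand. The methods name MACS14 as the peak caller, and its windows for local background are not given in the sources used here.

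**Figure D2:**
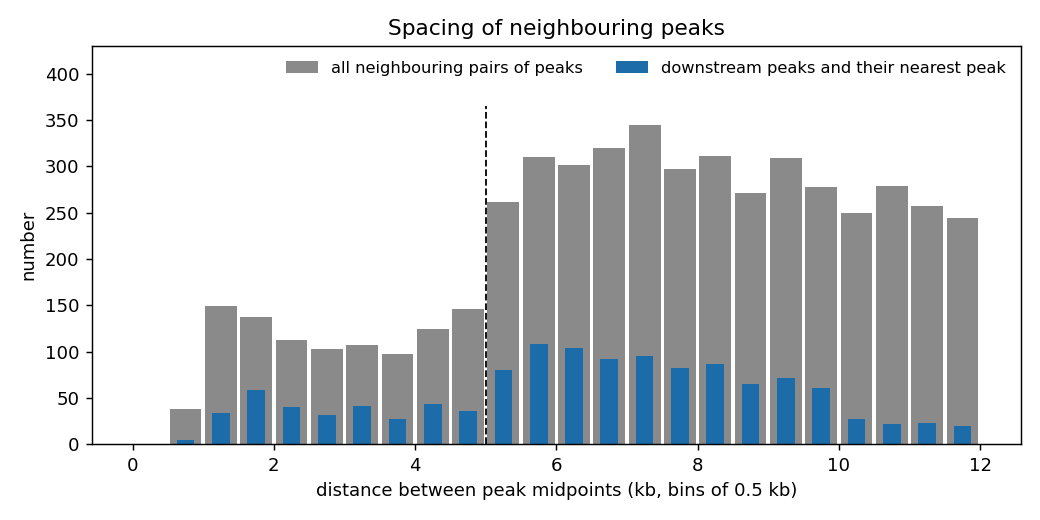
Number of neighbouring pairs of peaks in the list (grey) and of downstream peaks by the distance to their nearest peak (blue), against the distance between midpoints (kb, bins of 0.5 kb), with a dashed line at 5 kb. Both distributions rise at 5 kb, the grey one from 270 pairs at 4 to 5 kb to 572 at 5 to 6 kb.

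Counted over genes rather than peaks, an open start site went with fewer peaks in the near window and more in the far window. Of 10894 GENCODE protein coding genes with a peak within 1 kb of the start site, 787 (7.22%) had a downstream peak, and of 11338 genes without one 780 (6.88%) did, a difference of 0.34 points (-0.33 to 1.02). From 1 to 5 kb the shares were 2.29% and 4.04%, a difference of -1.74 points (-2.21 to -1.29). From 5 to 10 kb they were 5.09% and 3.02%, a difference of 2.07 points (1.55 to 2.59). Of the 1079 downstream peaks whose gene lacked a start site peak, 609 were the only peak of their gene in the list, and 40 reached over the start site themselves because the interval was wide.

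Downstream peaks were wider than the other distal peaks compared and narrower than start site peaks. Their median width was 1037 bp (1021 to 1055), with quartiles of 828 and 1351 bp and a range of 327 to 6348 bp. The medians were 985 bp (963 to 1005) for peaks 1 to 10 kb upstream, 918 bp (908 to 928) for the 3532 peaks 10 to 50 kb downstream and 1326 bp (1317 to 1338) for the 11772 peaks within 1 kb of a start site. Width fell with distance, from a median of 1189 bp (1142 to 1315) at 1 to 2 kb to 980 bp (945 to 1032) at 9 to 10 kb. The widest was 6348 bp long and lay over Slc35b2, a nucleotide sugar transporter gene, at chr17:45700195-45706542. It was followed by 6072 bp at Dbp, a clock-controlled transcription factor gene (chr7:52958974-52965045), 5122 bp at Fscn1, which encodes the actin bundling protein fascin (chr5:143720631-143725752), 5050 bp at Lzts2 (chr19:45088415-45093464) and 4781 bp at Csrnp1 (chr9:119889721-119894501). None of these 5 genes had a peak with its midpoint within 1 kb of the start site, and each midpoint lay 1157 to 2267 bp downstream. A wide peak over a start site that extends further into the gene than out of it enters this class through its midpoint.

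Most downstream peaks lay in introns. By GENCODE, 1025 midpoints (53.4%, 51.1 to 55.6) were in an intron, 375 (19.5%) were intergenic and 227 (11.8%) in a coding exon. A further 154 (8.02%) were within 1 kb of a GENCODE protein coding start site. The others were 70 (3.64%) in a 3′ UTR, 58 (3.02%) in another exon and 12 (0.62%) in a 5′ UTR. The intron share was close to that of peaks 10 to 50 kb downstream, from which it differed by -1.29 points (-4.06 to 1.48). The coding exon share was not: it exceeded the 3.82% of peaks 10 to 50 kb downstream by 7.99 points (6.47 to 9.62) and the 3.02% of upstream peaks by 8.80 points (7.15 to 10.5).

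Peaks were several times denser in coding exons than in introns, also when the amount of each kind of sequence was counted. For this count, peaks and sequence were both placed by the nearest protein coding start site of GENCODE, which gave 1903 downstream peaks, of which 1455 (76.5%) were members of the deposited class. Coding exons made up 4.37% of the sequence 1 to 10 kb downstream and held 13.4% (11.9 to 15.0) of the peaks, whereas introns made up 73.1% and held 60.8% (58.6 to 63.0). This was 28.0 peaks per Mb of coding exon and 7.58 per Mb of intron, a ratio of 3.69 (3.21 to 4.23). Without CpG-rich peaks, but with all sequence still counted, the ratio was 2.44 (2.05 to 2.89). The ratio was 2.84 (2.10 to 3.78) in the upstream window, so the density in coding exons was not limited to the downstream side. Start sites inside genes were included, so upstream coding exons can belong to the same gene. Which gene they belong to was not tested. Intergenic sequence held 9.41 peaks per Mb and 3′ UTR sequence 11.5.

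**Figure D3:**
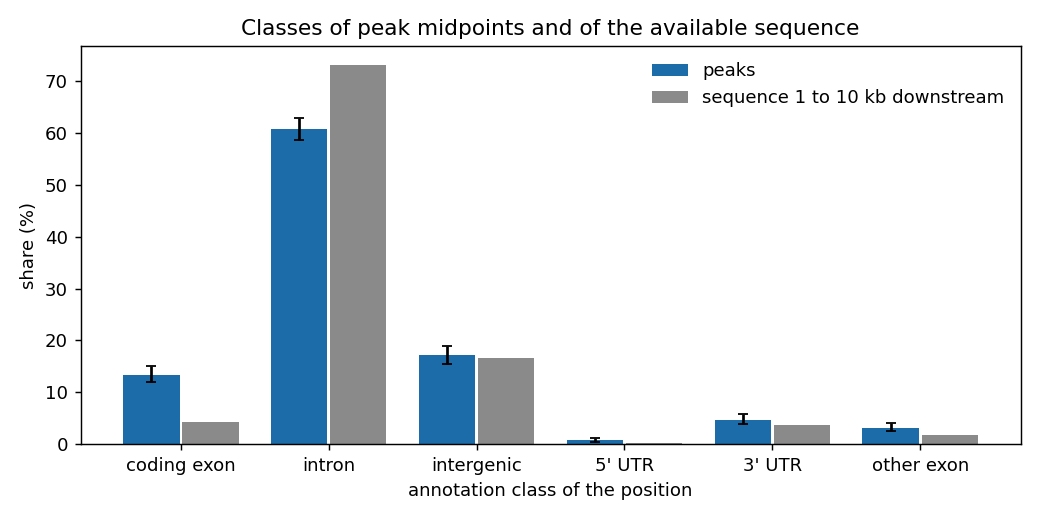
Share (%) of peak midpoints (blue, with 95% Wilson intervals) and of the available sequence (grey) in each GENCODE class, for positions 1 to 10 kb downstream of the nearest protein coding start site. Coding exons hold 13.4% of peaks and 4.37% of sequence, introns 60.8% and 73.1%.

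Within the assigned gene, the first intron held the largest group. For 1598 downstream peaks (83.2%) the start site implied by the deposited distance lay within 100 bp of an annotated one, so the place in the transcript could be read. Of these, 559 (35.0%, 32.7 to 37.4) were in intron 1, 201 (12.6%) in intron 2 and 217 (13.6%) in a later intron, while 28 (1.75%) were in exon 1 and 219 (13.7%) in a later exon. At 10 to 50 kb downstream intron 1 held 20.2%, a difference of 14.8 points (12.0 to 17.5). A window nearer the start site by itself favours intron 1, and the available sequence of intron 1 was not counted. At 10 to 50 kb downstream 41.9% of the matched peaks lay past the gene end. Another 332 downstream peaks (20.8%) lay beyond the end of their gene, at a median of 2768 bp past the end (quartiles 1375 and 4988 bp). The genes with a peak past the end had a median length of 3053 bp, against 22666 bp for genes with the peak inside, which the distance window itself favours. Peaks in later exons were CpG-rich more often than peaks in intron 1, 37.0% against 12.5%.

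An annotated GENCODE start site lay close to many downstream peaks. An annotated start site of any GENCODE transcript was within 1 kb of 313 midpoints (16.3%, 14.7 to 18.01), 2.87 points (0.54 to 5.18) more than for upstream peaks and 8.22 points (6.38 to 10.1) more than at 10 to 50 kb downstream. In 221 of the 313 it belonged to the same gene, in 50 to another protein coding gene and in 42 to another gene that was not protein coding. The assigned start site was not excluded from this count. It can count where GENCODE places it nearer, as may hold for Ptger2, at 1003 bp by the list and 920 bp by GENCODE. Genes were matched by symbol, so a start site under an unmatched symbol counts as that of another gene. These 313 peaks were wider, with a median of 1256 bp (1194 to 1325) against 1009 bp (987 to 1029) for the others, and 28.1% (23.4 to 33.3) against 12.4% (10.9 to 14.1) were CpG-rich. Placing the peaks by GENCODE protein coding start sites removes many such sites by construction, and the share was then 10.7%.

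CpG-rich DNA was concentrated next to the start site on the downstream side. Peaks count as CpG-rich here when CpG occurred at no less than 0.6 of the number predicted from their C and G content and GC made up 50% or more of the bases. This applied to 288 downstream peaks (15.0%, 13.5 to 16.7), against 11.2% upstream, 4.42% at 10 to 50 kb downstream and 67.9% within 1 kb of a start site. The difference from upstream was 3.82 points (1.61 to 6.00). It arose near the start site: at 1 to 2 kb the share was 37.2% (32.0 to 42.7) downstream and 21.1% (16.6 to 26.4) upstream, and at 5 to 6 kb it was 8.07% (5.17 to 12.4) and 6.83% (4.11 to 11.1). Of the 288, 90 were in a coding exon, 86 in an intron, 54 within 1 kb of a GENCODE protein coding start site and 34 intergenic. CpG-rich peaks were wider, at 1309 bp (1193 to 1371) against 1008 bp (987 to 1027). The share depends on the threshold, and with limits of 0.75 and 55% it was 4.74%.

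**Figure D4:**
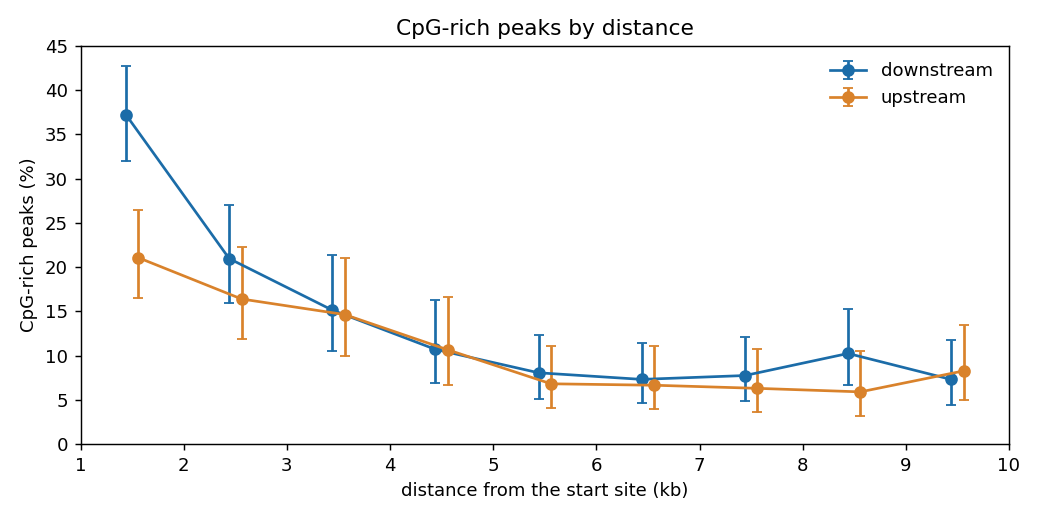
Share (%) of CpG-rich peaks by distance from the start site (kb) for downstream (blue) and upstream (orange) peaks, with 95% Wilson intervals. The downstream share is 37.2% at 1 to 2 kb, above the upstream 21.1%, and the intervals overlap in every bin beyond 2 kb.

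The CTCF motif was found mainly at the centre of the downstream peaks. Each of 19 short motifs was searched on both strands in the central 200 bp of a peak and in 200 bp centred 1000 bp away at higher coordinates, with intervals of the difference, here and between classes of peaks, widened over the 19 motifs. The CTCF core AGNGGGCGC was found in 81 centres (4.22%) and 0.31% of flanks, a difference of 3.90 points (2.47 to 5.34). In the centres of all 26232 peaks it was found in 3.33%. The share in downstream peaks differed by 1.47 points (-0.047 to 3.23) from that at 10 to 50 kb downstream and by 0.37 points (-1.67 to 2.37) from that of upstream peaks, and both intervals included 0. Among downstream peaks it was found in 5.28% (4.10 to 6.78) of those whose gene lacked a start site peak and in 2.85% (1.92 to 4.21) of those whose gene had one. It was found in 7.29% (4.82 to 10.9) of CpG-rich and 3.67% (2.87 to 4.70) of other downstream peaks. The core is itself rich in GC and holds a CpG, and the part of base composition in the CTCF shares was not tested. Of 75 peaks with matches on 1 strand only and a known gene strand, 47 (62.7%, 51.4 to 72.7) had the core on the strand opposite to the gene.

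Other motifs were also more frequent in the centre. The SP/KLF box GGGGCGG, bound by zinc finger factors at CpG-rich DNA, was found in 11.9% of centres and 3.49% of flanks, the AP-1 site TGANTCA in 6.66% and 4.06%, the ETS site CCGGAAG in 2.71% and 1.15%, and the POU octamer ATGCAAAT in 1.35% and 0.31%. With the flank taken on the other side, chosen as an alternative after the data were seen, the interval of the AP-1 and POU differences included 0 and 3 motifs were higher in the centre in place of 5. The AP-1 difference was 2.60 points (0.41 to 4.80) and its interval also included 0 with windows of 400 bp, at 2.19 points (-0.63 to 5.00). The MEIS site TGACAG, in 16.6% of centres and 13.5% of flanks, differed by 3.12 points (-0.34 to 6.59), by 4.63 points (0.43 to 8.84) with windows of 400 bp and by 4.59 points (0.76 to 8.43) without CpG-rich peaks. Without CpG-rich peaks the ETS difference was 1.16 points (-0.22 to 2.55). The centre was richer in GC than the flank, with a mean of 57.7% against 48.6%, and the part of base composition in these differences was not tested.

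Over all downstream peaks, no heart factor motif was more frequent in the centre than in the flank with an interval excluding 0. The TEAD motif was borderline. The GATA site AGATAA was found in 7.70% of centres and 7.50% of flanks, a difference of 0.21 points (-2.39 to 2.81), the T-box site GGTGTGA in 3.38% and 2.71%, the LIM-homeodomain site CTAATG in 4.95% and 6.25%, and the HAND site CATCTG in 15.8% and 13.7%. The MEF2 site CTATTTNTA was found in 0.36% of centres and 0.78% of flanks and the SRF CArG box in 0.31% and 0.83%, and for all of these the interval of the difference included 0. The NKX2 site CACTTNA was less frequent in the centre, in 6.82% against 10.4% (difference -3.59 points, -6.30 to -0.89), a difference that was -2.63 points (-5.57 to 0.30) without CpG-rich peaks. The TEAD site CATTCCA, in 3.96% and 2.29%, differed by 1.67 points (-0.002 to 3.33), an interval whose lower end lay just below 0. Without CpG-rich peaks the TEAD difference was 1.96 points (0.09 to 3.83). Compared with peaks 10 to 50 kb downstream, the centre share differed for 2 of the 19 motifs: GATA sites were less frequent in downstream peaks (-2.71 points, -5.04 to -0.22) and SP/KLF boxes more frequent (4.25 points, 1.75 to 6.95). The differences of the other heart motifs had intervals that included 0, among them TEAD (-1.48 points, -3.18 to 0.40), LIM-homeodomain (-1.54 points, -3.41 to 0.52) and SRF (-0.79 points, -1.49 to 0.0065). Compared with upstream peaks, the interval included 0 for all 19 motifs. Compared with peaks within 1 kb of a start site, 13 motifs were more frequent in downstream peaks and 3 (ETS, SP/KLF and NRF1) less frequent. The 13 included GATA (5.65 points, 3.95 to 7.71), TEAD, NKX2, T-box, LIM-homeodomain and HAND, but not MEF2 or SRF. Mean GC of the centre was 57.7% in downstream peaks, 55.1% at 10 to 50 kb downstream and 66.5% in start site peaks. In the flank of downstream peaks it was 48.6%. The part of GC in the differences between classes of peaks, and between centre and flank, was not tested. A match is a description of the sequence and not a measure of binding.

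**Figure D5:**
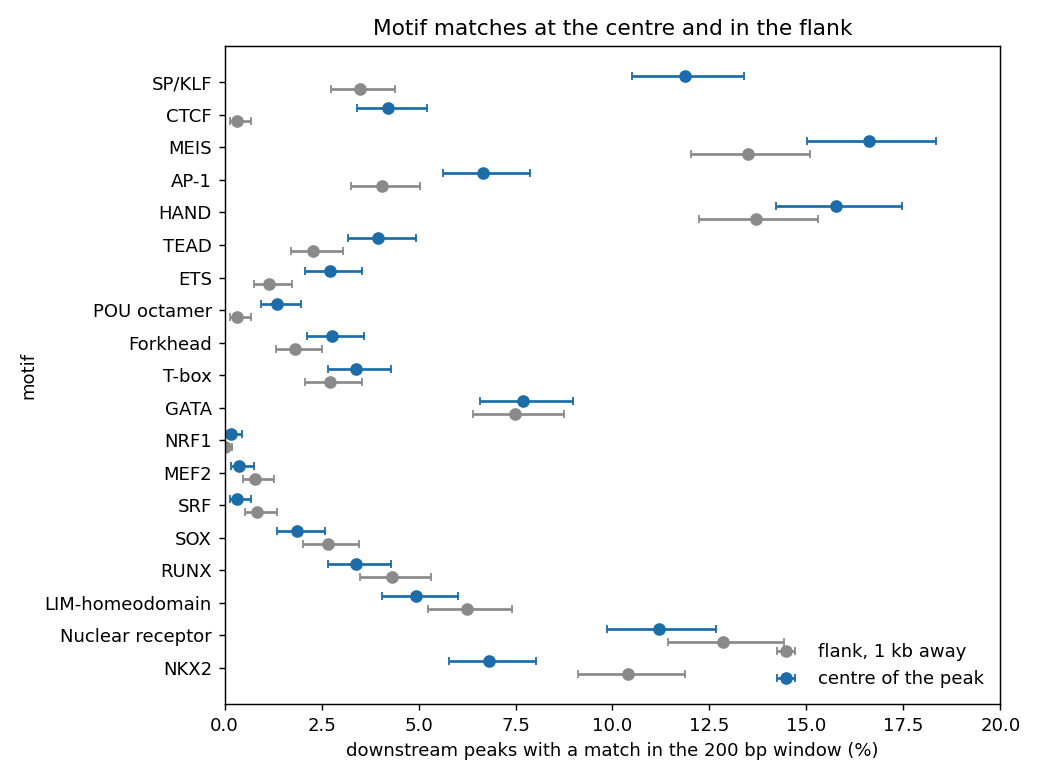
Share (%) of downstream peaks with a match to each of 19 motifs in the central 200 bp (blue) and in a flank 1 kb away (grey), with 95% Wilson intervals that are not widened over the motifs. CTCF is found in 4.22% of centres and 0.31% of flanks, whereas GATA is found in 7.70% and 7.50%.

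Genes of heart development and contraction had a downstream peak more often than the average gene of the list. So did genes of several lists made for other tissues or cell states. A downstream peak was assigned to 12.1% of all genes with any peak. Among genes with any peak, it was found at 10 of 39 cardiac regulators (25.6%, 14.6 to 41.1), 8 of 30 genes of cardiac contraction (26.7%, 14.2 to 44.4), 13 of 52 genes of signalling pathways (25.0%, 15.2 to 38.2) and 4 of 22 SWI/SNF genes (18.2%, 7.31 to 38.5, an interval that included 12.1%). The share was higher still at 8 of 23 neural genes (34.8%, 18.8 to 55.1), 6 of 17 endothelial and blood genes (35.3%, 17.3 to 58.7), 6 of 16 pluripotency genes (37.5%, 18.5 to 61.4), 5 of 8 skeletal muscle genes (62.5%, 30.6 to 86.3) and 3 of 8 liver genes (37.5%, 13.7 to 69.4), with intervals that overlapped those of the cardiac lists. Genes with more peaks have more chances to hold one here. The share was 6.52% for genes with 1 peak, 19.0% with 2, 22.4% with 3, 21.7% with 4 and 25.6% with 5 or more. On average 4.03 peaks were assigned to a cardiac regulator, 2.47 to a contraction gene and 3.23 to a signalling gene, against 1.71 to any gene. The cardiac and signalling genes are partly named in the study's text, so the lists are not independent of these samples. The lists also overlap, as Tbx3 and its peak count both as a cardiac regulator and as a pluripotency gene.

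Among the cardiac regulators, downstream peaks lay in the body of the gene, past its end, or at another start site. Gata4, a zinc finger factor required for heart formation, had no peak within 1 kb of its start site but a peak of 2052 bp over exon 2 (chr14:63858812-63860863), 4271 bp downstream. Irx4, a homeobox factor of the ventricle, likewise had a peak in coding exon 6 (chr13:73405649-73406806), 8282 bp downstream, and none at its start site. Prrx1, a factor of embryonic mesenchyme, had its only peak in intron 1 (chr1:165241862-165242737), CpG-rich and with a CTCF core. Meis2, a TALE homeobox factor, had one in intron 4 (chr2:115885377-115887059).

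At other regulators the peak lay past the gene end or near a further start site. Eomes had a peak 667 bp past its end (chr9:118395351-118396485) and Nr2f2, which encodes the nuclear receptor COUP-TFII of atrial development, one 708 bp past its end (chr7:77495701-77496546). The Msx2 peak (chr13:53559637-53561246, 7708 bp downstream) was intergenic. The peak of Tbx3, a T-box factor of the conduction system (chr5:120129980-120131402), lay 69 bp from another Tbx3 start site. The 11 peaks of the list had a median width of 1423 bp, 5 belonged to a gene with a start site peak and 1 held a heart motif.

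Of the 8 peaks at genes of contraction, 6 (Wilson interval 40.9% to 92.9%) lay in an intron, against 53.4% of all downstream peaks. CpG-rich peaks were 0 of the 8, against 15.0% of all. This allows a share of up to 37.5% (3 divided by the number of peaks), or 32.4% by the Wilson interval. So few peaks do not separate either share from that of all downstream peaks. The Tmod1 peak (chr4:46053118-46054233), 1581 bp downstream in intron 1, was the one with most heart motifs among the cardiac genes: its centre held T-box, LIM-homeodomain, MEF2 and HAND matches, a number of motifs found in 3 of all 1921 downstream peaks. Intron 1 also held the peaks of Ldb3, which encodes a Z-disc protein (chr14:35398367-35399425, 2898 bp downstream) and Pkp2, a desmosome component (chr16:16219557-16220350, 6515 bp). The Tnnt2 peak was in intron 12 (chr1:137747083-137747761), 9983 bp downstream and 679 bp wide. The Kcnh2 peak was in intron 7 (chr5:23827622-23828772), 125 bp from another annotated Kcnh2 start site. The peak of Tnni1, the slow skeletal troponin I that is also made in the embryonic heart (chr1:137696606-137697956), lay 871 bp from another Tnni1 start site. The Myl7 peak (chr11:5792008-5793357) lay 3957 bp past the end of this short gene. Over the 19 peaks of regulators and contraction genes, 3 (15.8%, 5.52 to 37.6) held any of the 8 heart motifs in the centre, against 690 (35.9%, 33.8 to 38.1) of all downstream peaks.

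Signalling genes had the widest downstream peaks of the 4 lists. Their 13 peaks had a median width of 2759 bp, and 7 (53.8%, 29.1 to 76.8) were at least 2000 bp wide, against 171 (8.90%) of all downstream peaks. Ligands and receptors with wide peaks were Bmp7, a BMP ligand (4104 bp, chr2:172762548-172766651), Fgfr2, an FGF receptor (3375 bp, chr7:137407014-137410388), and Nrp2, a co-receptor for semaphorins and VEGF (3013 bp, chr1:62752617-62755629), all in intron 1 and with no other peak whose midpoint lay within 1 kb of the assigned start site. The Bmp7 and Fgfr2 peaks, with midpoints 1223 and 1622 bp downstream, reached over the assigned start site themselves and lay 993 and 826 bp from another start site of the same gene. Bmp2 had a peak of 1311 bp in coding exon 2 (chr2:133379766-133381076) and Bmp4 one of 1439 bp in intron 1 (chr14:47006530-47007968), 55 bp from a start site of Gm15222, with GATA, NKX2 and HAND matches in its centre. Nodal, a TGF-beta family ligand, had one of 1030 bp in coding exon 2 (chr10:60885723-60886752).

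Targets and an inhibitor of BMP signalling had wide downstream peaks, and each of these 4 genes also had a start site peak. The Id genes are short direct targets of BMP signalling, and each had a peak past its end: 1331 bp past Id1 (2893 bp wide, chr2:152563032-152565924), 999 bp past Id2 (1805 bp, chr12:25776765-25778569) and 1913 bp past Id3 (2759 bp, chr4:135702205-135704963). The nearest other peak was 2905, 3415 and 3411 bp away, within the 5 kb at which neighbours were infrequent. Smad6, an inhibitor of BMP signalling, had a peak of 2918 bp in intron 1 (chr9:63864261-63867178) with NKX2 and HAND matches. In other pathways, the peaks of Dusp6, a phosphatase induced by FGF signalling (761 bp, chr10:98731692-98732452), and of Hes1, a Notch target (1792 bp, chr16:30069513-30071304), lay 1949 and 2526 bp past the gene end. The peak of Gli1, a Hedgehog target, was in intron 2 (2871 bp, chr10:126775620-126778490) and was the only peak of that gene.

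Of the 4 SWI/SNF peaks, 3 lay at a further start site of the same gene. The peak of Smarcd3 (chr5:24103886-24105252), 3252 bp downstream of the assigned start site, which had no peak within 1 kb, was in coding exon 2 and 187 bp from another annotated Smarcd3 start site, with CTCF and SP/KLF matches in its centre. That of Smarca2, which encodes the ATPase Brm (chr19:26680137-26682500), lay 441 bp from another Smarca2 start site, and that of Dpf1, a neural subunit (chr7:30092398-30093624), 20 bp from another Dpf1 start site. The Smarcd1 peak (chr15:99538235-99539053) was in intron 9, with no annotated start site within 1 kb.

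Few genes had more than 1 downstream peak. Of the 1852 genes, 1786 had 1, 63 had 2 and 3 had 3. At Ywhaz, which encodes a 14-3-3 protein, the 3 peaks lay within 1 locus, 1 of them 150 bp from another Ywhaz start site (chr15:36721676-36724553) and the other two 708 bp apart. The 3 peaks of Ccl21b lay at separate places on chromosome 4 (chr4:41992442-41993309, chr4:42385278-42386026 and chr4:42632664-42633562) with distances of 7329, 7393 and 7421 bp and the same CTCF and Forkhead matches, and those of Mir684-1 lay on chromosomes 5 and 16. These names have several near-identical copies in the genome, and reads can be split between copies, so those peaks are uncertain.

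Noncoding genes held 257 downstream peaks (13.4%), against 14.1% of upstream peaks, 12.4% at 10 to 50 kb downstream and 3.75% within 1 kb of a start site. Of the 257, 86 belonged to microRNA genes and 161 to other noncoding RNAs besides 10 small nucleolar or Cajal body RNAs. Of the 86 microRNA peaks 7 had a start site peak for the same gene and 31 lay in an intron. Over all downstream peaks these shares were 43.8% and 53.4%. By chromosome, downstream peaks were 5.64% (X) to 9.24% (11) of the peaks, leaving aside Y, where 0 of 5 peaks were downstream.

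The limits of the class cut through continuous values. The peaks nearest the inner limit were those of Nectin2 (1001 bp) and Ptger2 (1003 bp) inside and of Ndrg1 (1000 bp) and Eno2 (995 bp) outside. At the outer limit they were those of Bcl2l1 (10000 bp) and Cdkl4 (9998 bp) inside and of D830013O20Rik (10002 bp) and Mir6940 (10019 bp) outside. The distance also depends on the annotation, since 75.7% of the 1921 peaks were 1 to 10 kb downstream of the nearest GENCODE protein coding start site as well.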

How the data were processed

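ATAC-seq of 2 replicates of day 5 CPCs was represented by 1 deposited peak list. Per the methods and the submitters' processing notes, the authors mapped reads to mm9 with Bowtie2, filtered them with SAMtools, removed duplicates with Picard 1.136, called peaks per replicate with MACS14, and kept peaks that overlapped between replicates by at least 1 bp with bedtools 2.15. The nearest start site was assigned by HOMER, a step described for ChIP-Seq. The deposited columns that were used hold interval limits and a score for position, the signed distance in bp from a start site to the midpoint. No signal or p-value was used here, so depth is unknown. A peak called in 1 replicate alone is missing from the list, so a missing peak is not closed chromatin.

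The 26429 lines were reduced to 26232 distinct intervals. GENCODE vM1 gave the gene models and the matching NCBIM37 assembly (mm9) the sequence. A midpoint took the class that came first among: within 1 kb of a coding start site, UTR (5′ before 3′), exon (coding before other), intron and intergenic. Available sequence was counted every 50 bp. A start site peak has its midpoint within 1 kb of the start site of the same symbol. Of the downstream peaks, 91.1% had a symbol found in GENCODE, and for 57.1% the implied start site was within 1 bp of an annotated one. Other motifs searched were NRF1 GCGCATGCG and, for SOX, CCATTGT and, for Forkhead, TGTTTAC and, for MEIS, TGACAG and, for RUNX, TGTGGTT and, for nuclear receptors, AGGTCA. N is any base, and motifs were searched on both strands, where sites of different motifs may overlap.

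Shares have Wilson, differences Newcombe, medians order-statistic and ratios exact binomial 95% intervals (scipy 1.17.1, pandas 2.3.3), and rates per Mb exact Poisson intervals. Motif differences between centre and flank have normal intervals for paired shares, and those between classes of peaks Newcombe intervals, both with the 95% level Bonferroni-adjusted over 19 motifs. The scripts were tested on simulated data. The members and gene lists were chosen with earlier results of these data known. The genes named are those with a downstream peak in the lists of cardiac regulators, contraction, signalling and SWI/SNF, the 5 widest peaks, the genes with most downstream peaks and the peaks nearest the limits. The downstream peaks of 3 genes of these lists are not reported here by name, and Isl1 knockdown samples were not analysed here.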

Additional observations from a re-analysis of the deposited data

How the results depend on the processing

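Counting every line or only peaks of at least 500 bp moved the median width, the shares and the ratio to upstream peaks of the downstream peaks by less than their intervals and their number by less than 1.5 times. For peaks more than 2 kb downstream the median width was 1017 bp and 14.1% lay within 1 kb of an annotated GENCODE start site. Of these peaks 47.4% had a start site peak and 10.7% were CpG-rich. With the nearest GENCODE protein coding start site, 60.8% lay in an intron and 10.7% within 1 kb of an annotated start site. With this placement 53.5% had a start site peak and 12.9% were CpG-rich. The ratio to upstream peaks went from 1.14 to 1.08 when peaks were placed by GENCODE, and turned to 0.967 when they were also divided by the Mb of available sequence, of which more lay downstream. The stricter CpG threshold gave 4.74%. With windows of 400 bp the AP-1 difference was 2.19 points and its interval included 0. With the flank on the other side, 3 motifs in place of 5 were higher in the centre. CTCF and SP/KLF were higher in the centre under each motif setting run. Causes of the remaining changes were not tested. Neither replicate could be left out, as both share 1 list. No paired analysis was possible because there was 1 group. Unknown depth limits what a missing peak means.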

Other observations

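Lists of other cell types and functions, made from general knowledge, were read in the same way. The 6 endothelial and blood genes with a downstream peak were Egfl7, Etv2, Fli1, Klf1, Sox17 and Tal1. Of genes with any peak, one was found at 3 of 12 smooth muscle genes, 8 of 43 histone and DNA modifiers, 3 of 36 cell cycle genes and 2 of 23 housekeeping genes, against 12.1% of all genes. Etv2, a factor of blood and endothelial progenitors, and Klf1, a factor of red blood cells, each had a downstream peak in a coding exon as their only peak, 1169 and 1544 bp wide. Neurod1, a neurogenic factor, had its only peak in the coding exon class (1069 bp wide, 2201 bp downstream). In the matched Neurod1 transcript the midpoint lay in intron 2, and a start site of Gm17325 was 451 bp away. Alb, the albumin gene of liver, had its only peak in intron 7 (711 bp wide). Myc, a growth regulator, had a downstream peak of 2251 bp that lay 36 bp from another annotated Myc start site. The genes of this paragraph were picked after their values were seen, and several lists hold few genes.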
